A study of Homo sapiens with 8 samples.

Results

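Histone genes were followed in 8 RNA-seq libraries of 2 human acute myeloid leukaemia lines. A gene was taken where its symbol began with HIST1H to HIST4H, H1F, H2AF or H3F, did not end in P and digits, and held 10 or more counts summed over the 8 libraries. This gave 56 of the 57992 genes in the table. Of these, 45 were clustered HIST genes and 11 carried H1F, H2AF or H3F names, among them H1FX-AS1, an RNA antisense to H1FX. A further 49 matching names fell under 10 counts and 13 were left out by their ending. Annotation as a pseudogene in GENCODE 29 remained for HIST1H3PS1 and HIST2H2BD among the clustered members.

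The 4 groups were KG1A in dG, KG1A in PBS, U937 in dG and U937 in PBS, with 2 libraries each. KG1A is a line of immature leukaemic cells that carry CD34, and U937 is a line of monoblast character. The agent, which the labels call dG, was given at 10 mM, and PBS was the vehicle; the exposure time was not given in the sources used here. The series asked how a disturbed supply of deoxynucleotides acts on the maturation block of such cells. All 8 libraries came from cells grown in RPMI 1640 with dialyzed serum. Nothing in the labels says that replicates were separate cultures, so the p-values measure the spread between these libraries, which may be technical.

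Chromatin wraps DNA around a core of the histones H2A, H2B, H3 and H4, and linker histone H1 binds the DNA between cores. The clustered genes supply the bulk of these proteins during S phase, and their mRNAs typically end in a conserved stem-loop bound by SLBP in place of a poly(A) tail. Variant histones such as H2A.Z and H3.3 come from single genes with introns and poly(A) tails and are made throughout the cell cycle. Several clustered genes are also known to give polyadenylated mRNA, mainly in cells that differentiate or leave the cycle.

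The libraries were made with an mRNA kit, which selects poly(A) tails, so tail-less histone mRNAs were measured only as carryover or in polyadenylated form. Library totals ran from 21053724 to 31135338 counts, and 1 count equalled 0.0314 to 0.0485 CPM (counts scaled to a library of a fixed size). The depth of the clustered genes was low, and since they are close copies of each other, the division of reads among them is uncertain. Summed over a group's 2 libraries, the median clustered member had 12 counts in KG1A dG, 12 in KG1A PBS, 10 in U937 dG and 9 in U937 PBS. The filter on low counts was passed by 20 of the 45 clustered members and by all 11 variant members. Marker genes separated the lines, although the myeloid marker MPO was at or near 0 in both. CD34 averaged 0.561 CPM in U937 dG and 1191 CPM in KG1A dG, and ELANE 112 CPM in U937 dG against 0 in KG1A dG.

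The stem-loop that ends a replication-dependent histone mRNA is shown first, since it is what sets these mRNAs apart from those with a poly(A) tail. In the GENCODE 29 transcripts, a 16-base stem-loop was found in 25 members, in 7 spellings. The spelling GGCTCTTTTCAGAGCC was in 12 members, and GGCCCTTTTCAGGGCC and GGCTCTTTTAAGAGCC in 4 members each. The capitals mark the stem-loop within its flanks, 5′ to 3′, with T for U:
HIST1H2AC: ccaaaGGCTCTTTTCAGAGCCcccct
HIST2H2BE: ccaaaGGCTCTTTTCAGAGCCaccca
HIST1H2BD: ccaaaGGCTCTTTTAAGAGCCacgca
HIST1H4H: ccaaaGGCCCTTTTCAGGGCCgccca
HIST1H2AG: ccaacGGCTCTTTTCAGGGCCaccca
H2AFX: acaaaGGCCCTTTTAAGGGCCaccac

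The annotated transcripts of these genes did not all stop there. Among transcripts that held the stem-loop, the furthest end lay 1128 bases past it in HIST1H2AC, 1729 in HIST2H2BE and 39 in HIST1H2BD. It lay 1655 bases past it in HIST1H4H, 1761 in HIST1H2AG and 1044 in H2AFX. The longest HIST1H2BD transcript, of 789 bases, held no stem-loop. H2AFX, the gene of the damage-responsive variant H2A.X, was the only H1F, H2AF or H3F member with the stem-loop in a transcript model.

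The promoters of clustered H2A and H2B genes hold short shared motifs, shown here for 3 genes called higher in U937. The 250 bases before the RefSeq start site of each are given on the gene's own strand (GRCh38.p14). HIST2H2BE (RefSeq symbol H2BC21) lies on the minus strand with the window chr1:149886683-149886932, HIST1H2BJ (H2BC11) on the minus strand with chr6:27132796-27133045, and HIST1H2AC (H2AC6) on the plus strand with chr6:26123922-26124171. Capitals mark 3 motifs, the CCAAT box, the TATA box as TATAAA, and the octamer ATTTGCAT, each searched on both strands, so that reverse complements are in capitals too. Overlapping matches run together, as both strands' TATA matches do near the 5′ end for HIST1H2BJ:
HIST2H2BE: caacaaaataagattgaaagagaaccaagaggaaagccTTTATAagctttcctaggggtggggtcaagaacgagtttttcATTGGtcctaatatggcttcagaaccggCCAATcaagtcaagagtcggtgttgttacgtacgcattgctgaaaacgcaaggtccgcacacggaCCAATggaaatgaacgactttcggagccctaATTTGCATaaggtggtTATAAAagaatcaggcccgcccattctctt
HIST1H2BJ: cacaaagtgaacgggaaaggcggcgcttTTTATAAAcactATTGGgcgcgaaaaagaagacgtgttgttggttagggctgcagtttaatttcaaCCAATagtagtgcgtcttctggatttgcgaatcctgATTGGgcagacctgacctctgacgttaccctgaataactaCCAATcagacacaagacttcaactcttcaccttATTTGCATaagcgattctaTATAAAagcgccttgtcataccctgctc
HIST1H2AC: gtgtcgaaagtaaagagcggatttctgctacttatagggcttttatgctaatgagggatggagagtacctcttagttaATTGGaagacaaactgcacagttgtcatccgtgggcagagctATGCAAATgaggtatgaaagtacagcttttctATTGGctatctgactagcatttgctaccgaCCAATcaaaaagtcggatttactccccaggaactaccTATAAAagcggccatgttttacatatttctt

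Over the window of 250 bases before to 50 after the start, 46 members had a RefSeq promoter. CCAAT was in 40 of the 46 (87.0%) and in 34.6% of all 35116 promoters, and TATAAA in 29 (63.0%) and in 11.5%. The octamer, a site known for OCT1 (POU2F1), was in 17 of the 46 (37.0%) and in 1.77% of all promoters. By type, it was in 10 of 14 clustered H2B, 6 of 8 clustered H2A and 1 of 8 variant promoters. Some H2A and H2B genes start close together on opposite strands and share most of their windows, as HIST1H2BJ and HIST1H2AG do. The same match is then counted for both genes, so the promoters are not separate cases. These matches describe letters in a window and not bound sites. The window of HIST2H2BE overlaps that of HIST2H2AC, which was called lower in U937. HIST1H2BD, called higher, has no octamer in its window. A link between the motifs and the response was not tested.

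In U937, most of the clustered histone mRNAs that could be tested were higher in dG. Genes were tested with edgeR's quasi-likelihood F test over all 18314 genes that passed the filter, with a threshold of 0.05 on the Benjamini-Hochberg adjusted p. All log2 fold changes are dG over PBS, and ± is a standard error worked back from the fold change and the test's F statistic. Of the 20 clustered members tested, 14 were called higher and 1 lower, beside 32.4% of all genes tested called higher and 31.5% lower (64.0% in either direction). Among the 14, HIST1H2BO passed the filter only with its U937 dG counts, so its call adds no support to this count. The median of the 20 was 1.61, against 0 over all genes. Counting all 45 clustered members, tested or not, both dG libraries lay above both PBS libraries in 22, below in 6 and overlapped in 17, beside 35.7% and 35.4% of the 23223 genes with 10 or more counts. Summed over the 45, the level was 76.3 and 80.0 CPM in U937 dG, against 18.9 and 16.8 CPM in U937 PBS. In bulk RNA, more cells with an mRNA and more of it per cell cannot be told apart.

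**Figure D1:**
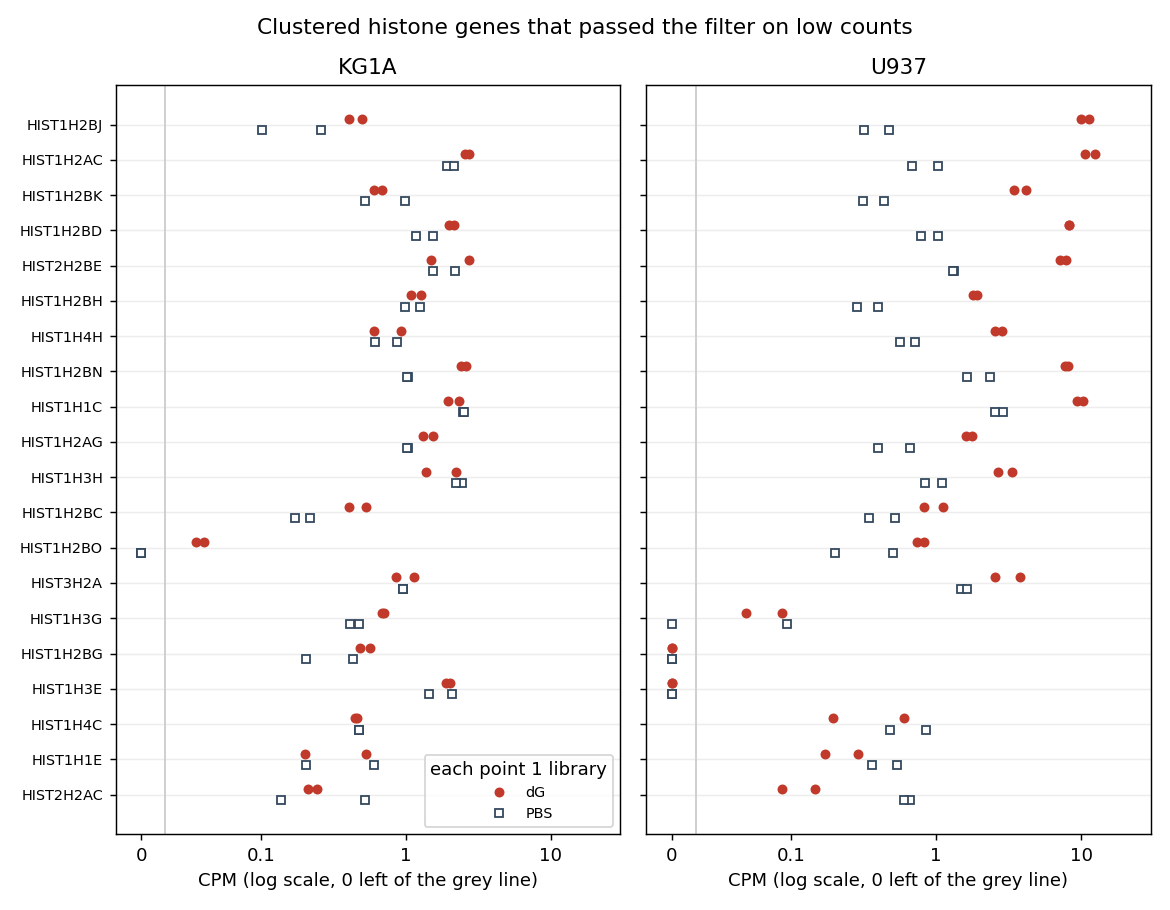
CPM (log scale, 0 left of the grey line) of the 20 clustered members that passed the filter, in KG1A (left) and U937 (right), with 1 point per library for dG (filled) and PBS (open). In U937 the dG points of HIST1H2BJ lie at 9.96 and 11.4 CPM against 0.471 and 0.319 in PBS, while those of HIST2H2AC lie below both PBS points.

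The H2B genes, which encode a core histone of the nucleosome, moved furthest. Of 16 clustered H2B members, 9 were tested in U937, 8 of these were called higher and none lower, with a median of 2.45. The 8 include HIST1H2BO, which passed the filter only with its U937 dG counts. In 13 of the 16, both dG libraries lay above both PBS libraries, and in none below. Over all genes, 32.4% were called higher and 31.5% lower. Among all genes with 10 or more counts, 35.7% had both dG libraries above and 35.4% below.

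HIST1H2BJ (ENSG00000124635, minus strand, chr6:27125897-27132750, hg38) had 231 and 234 counts in U937 dG, against 15 and 8 in U937 PBS. Scaled to depth this was 9.96 and 11.4 CPM in dG, against 0.471 and 0.319 CPM in PBS. Both dG libraries stood far above both PBS libraries, which were close to each other. The log2 fold change was 4.70 ± 0.21 (adjusted p = 1.04e-20), the highest of any member in this comparison.

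HIST1H2BK, whose mRNA is known in a polyadenylated form, had 4.14 and 3.44 CPM in U937 dG, against 0.314 and 0.439 CPM in U937 PBS. HIST1H2BD, a gene with a second, spliced polyadenylated transcript, had 8.28 and 8.20 CPM in dG, against 0.785 and 1.04 CPM in PBS. Its span overlaps AL353759.1 and the pseudogene LARP1P1. In both genes the treated libraries were clear of the vehicle libraries by more than the gap within either pair. The log2 fold changes were 3.35 ± 0.28 for HIST1H2BK (adjusted p = 5.98e-13) and 3.19 ± 0.18 for HIST1H2BD (adjusted p = 1.43e-17).

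HIST2H2BE (ENSG00000184678, minus strand, chr1:149884459-149886652), from the HIST2 cluster, had 7.11 and 7.81 CPM in U937 dG, against 1.32 and 1.32 CPM in U937 PBS. Again the groups did not overlap. The log2 fold change was 2.50 ± 0.20 (adjusted p = 8.56e-14). HIST1H2BH rose by 2.45 ± 0.33 (adjusted p = 2.86e-08) and HIST1H2BN by 1.97 ± 0.16 (adjusted p = 1.68e-13). The HIST1H2BN model spans HIST1H2AL on the same strand, so reads of these genes could be exchanged.

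HIST1H2BC and HIST1H2BO were the weaker calls. HIST1H2BC had 26 and 17 counts in U937 dG, against 11 and 13 in U937 PBS, a log2 fold change of 1.21 ± 0.37 (adjusted p = 0.00426). HIST1H2BO had 17 and 17 counts in dG, against 16 and 5 in PBS, a log2 fold change of 1.07 ± 0.41 (adjusted p = 0.0231). HIST1H2BG, the ninth tested H2B gene, was at 0 in all 4 U937 libraries. Without U937 PBS replicate 1 or U937 dG replicate 1, HIST1H2BC had an adjusted p of 0.0982 or 0.0839, and HIST1H2BO had 0.289 without U937 PBS replicate 2 and 0.0637 or 0.108 without dG replicate 1 or 2.

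Among the 7 H2B members under the filter, HIST1H2BB and HIST1H2BF had U937 reads mainly in dG. HIST1H2BB had 8 and 6 counts in dG and none in PBS, at least 6.07-fold higher against a floor of 3 counts over the group. HIST1H2BF had 8 and 10 counts in dG, against 2 and 0 in PBS, an 11.7-fold ratio with an exact 95% counting interval of 2.80 to 104. These ratios have no test.

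Clustered H2A genes changed in both directions. Of 8 members, 4 were tested in U937, 3 were called higher and 1 lower. The shares over all genes tested were 32.4% higher and 31.5% lower. HIST1H2AC (ENSG00000180573, plus strand, chr6:26124145-26139116) had 10.6 and 12.5 CPM in U937 dG, against 1.04 and 0.678 CPM in U937 PBS. Its mean in dG, 11.6 CPM, was the highest of the clustered members on this scale. The log2 fold change was 3.71 ± 0.18 (adjusted p = 4.14e-20). HIST1H2AG rose by 1.63 ± 0.30 (adjusted p = 1.21e-05) and HIST3H2A, from the HIST3 cluster, by 1.02 ± 0.22 (adjusted p = 9.46e-05).

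HIST2H2AC went the other way. It had 2 and 3 counts in U937 dG, against 21 and 15 in U937 PBS, so that both treated libraries were near the floor. The log2 fold change was -2.42 ± 0.59 (adjusted p = 0.00054). This gene starts 322 bases from HIST2H2BE, on the other strand, and is the only clustered member called lower in this comparison.

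The linker and the remaining core histones had fewer measurable genes. HIST1H1C, which encodes the linker histone H1.2, had 10.3 and 9.31 CPM in U937 dG, against 2.89 and 2.55 CPM in U937 PBS. The groups were well apart, and the log2 fold change was 1.85 ± 0.14 (adjusted p = 2.04e-14). HIST1H1E (H1.4) had 4 and 6 counts in dG, against 17 and 9 in PBS, and was not called (adjusted p = 0.133). HIST1H4H had 2.54 and 2.86 CPM in dG, against 0.565 and 0.718 CPM in PBS, a log2 fold change of 2.08 ± 0.27 (adjusted p = 1.32e-08).

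HIST1H3H, which encodes canonical H3, had 2.67 and 3.35 CPM in U937 dG, against 1.10 and 0.837 CPM in U937 PBS. Its libraries were also apart by treatment, with a log2 fold change of 1.60 ± 0.24 (adjusted p = 4.2e-07). HIST1H4C, an H4 gene widely used as an S-phase marker, had 14 and 4 counts in dG, against 27 and 12 in PBS, with overlapping groups (adjusted p = 0.143). HIST1H3G was at 0 to 3 counts per library and HIST1H3E at 0 in every U937 library.

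**Figure D2:**
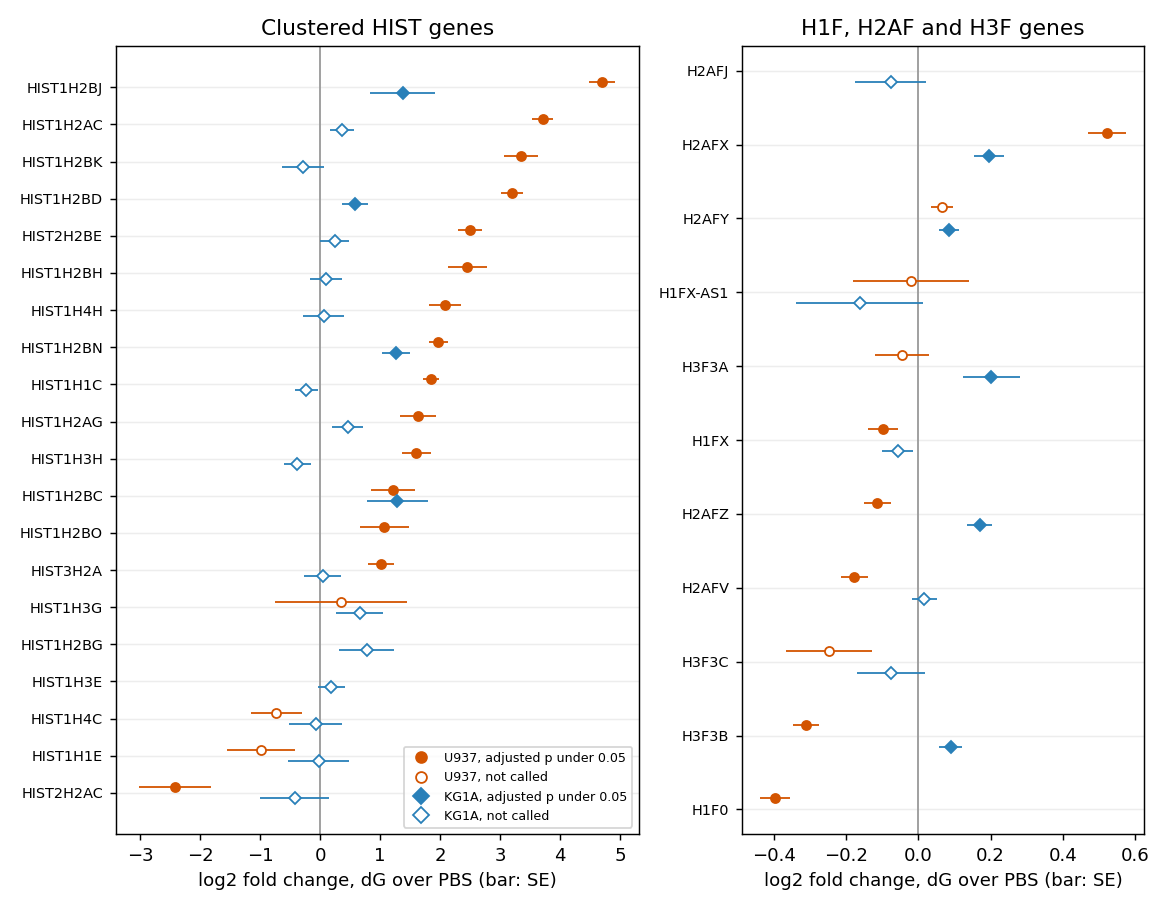
log2 fold change of dG over PBS with its standard error, for clustered members (left) and H1F, H2AF and H3F members (right, on a narrower scale), in U937 and KG1A. Filled marks have an adjusted p under 0.05; HIST1H2BG, HIST1H3E and H2AFJ are not drawn for U937, nor HIST1H2BO and H1F0 for KG1A. U937 marks of clustered genes reach 4.70 (HIST1H2BJ), and the highest variant mark is H2AFX in U937 at 0.52.

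Most clustered genes known for polyadenylated mRNA were higher in dG in U937. A list of clustered genes for which polyadenylated mRNA is described held 9 members, of which 7 were tested. All 7 were called higher in U937, with a median of 3.19, beside 32.4% of all genes tested. The untested HIST1H2BE and HIST4H4 had overlapping libraries. Of the 36 other clustered members, 13 were tested, 7 were called higher and 1 lower. This list was drawn up from general knowledge with earlier results of these libraries known, so its count is no independent evidence.

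The 9 listed members together had 51.7 and 53.6 CPM in U937 dG, against 7.28 and 7.06 CPM in U937 PBS. The 36 others had 24.6 and 26.4 CPM in dG, against 11.6 and 9.77 CPM in PBS. The groups overlapped in neither set, and the gap was wider for the listed genes. The 25 clustered members that did not pass the filter summed to 3.45 and 3.88 CPM in dG, against 2.70 and 2.71 CPM in PBS.

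**Figure D3:**
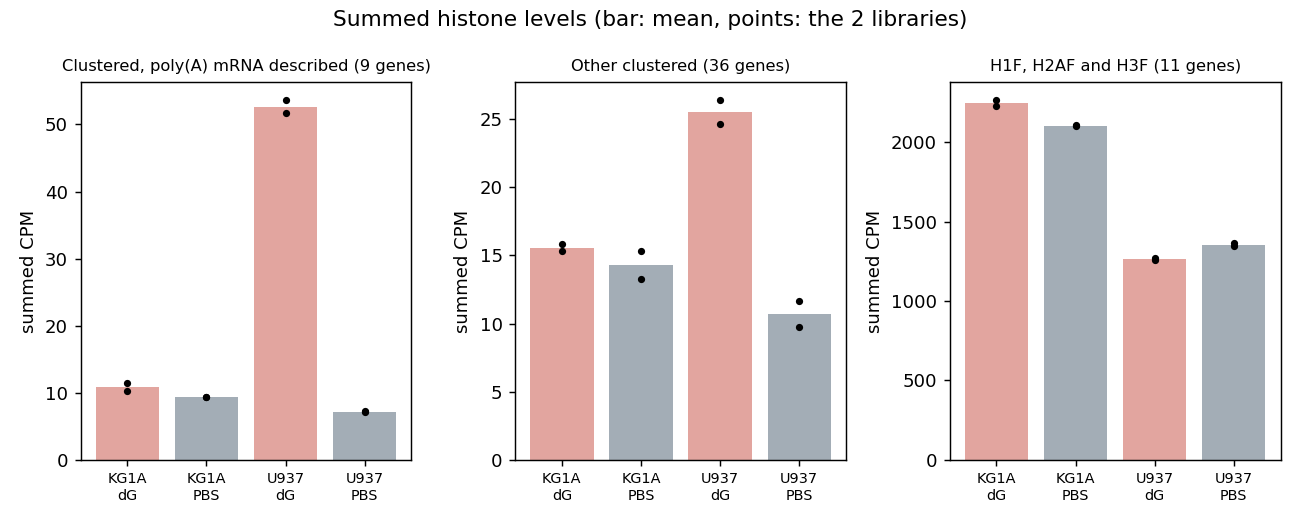
Summed CPM of the 9 clustered members with described polyadenylated mRNA (left), the 36 other clustered members (middle) and the 11 H1F, H2AF and H3F members (right), each on its own scale, as the mean of 2 libraries (bar) with both values (points). The listed clustered genes averaged 52.7 CPM in U937 dG against 7.17 CPM in U937 PBS, while the variant sum was 1263 CPM in U937 dG against 1354 CPM in U937 PBS.

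The ends of the annotated transcripts were counted as well. A poly(A) signal (AATAAA or ATTAAA) stood within the last 50 bases of a model in 16 clustered members, of which 13 were tested and 11 called higher in U937, none lower. Of the 29 without one, 7 were tested, 3 called higher and 1 lower. The share of all genes tested was 32.4% higher and 31.5% lower. A split by the stem-loop gave a smaller contrast. Of 19 members with a model running over 100 bases past it, 12 were tested and 9 called higher, and of the 26 others 8 were tested, 5 called higher and 1 lower. HIST1H2BN is among the 19 through a transcript whose stem-loop has other flanks than that of its shorter transcript. The shorter one ends 5 bases past its stem-loop, so the place of this gene is uncertain. The 19 summed to 39.7 and 44.1 CPM in U937 dG, against 9.79 and 8.77 CPM in U937 PBS, and the 26 others to 36.6 and 35.9 CPM in dG, against 9.13 and 8.05 CPM in PBS, so both sets were higher by a like factor. Of the 26, 20 had no stem-loop in their models, 5 had it within 100 bases of a transcript's end and 1 was not matched. The 20 held 7 of the 8 tested, so the split hardly covers transcripts that stop at the stem-loop. HIST1H2BK and HIST1H1C, with exon lengths of 381 and 642 bases and no stem-loop in their models, were among those without a signal. A model's end comes from the annotation and was not measured in these cells.

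A tail-less RNA moved with the treatment as well. Of 9 RNAs without a poly(A) tail, chosen after the values were seen, RN7SL2 (the RNA of the signal recognition particle) was the only one that passed the filter. It had 19.4 and 22.6 CPM in U937 dG, against 7.72 and 8.25 CPM in U937 PBS, a log2 fold change of 1.39 ± 0.20 (adjusted p = 1.27e-07). In KG1A it had 12.3 and 19.2 CPM in dG, against 4.33 and 13.1 CPM in PBS, with overlapping libraries (0.77 ± 0.20, adjusted p = 0.00147). That KG1A call was lost without KG1A PBS replicate 1 (0.25, adjusted p = 0.155), with DESeq2's test and with limma (adjusted p up to 0.32), and the value was 1.84 without KG1A PBS replicate 2 and 0.43 without KG1A dG replicate 2. The U937 call was lost with unfiltered limma (adjusted p = 0.0899). Its part in the histone result was not tested.

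Neighbouring start sites differed in the size of their change in U937, and in 1 pair in its direction. There were 7 pairs of clustered members that start head to head. HIST2H2BE and HIST2H2AC, 322 bases apart, had log2 fold changes of 2.50 and -2.42 in U937, where HIST2H2AC had few counts in dG. HIST1H2BJ and HIST1H2AG, 291 bases apart, had 4.70 and 1.63, and HIST1H2AC and HIST1H2BC, 218 bases apart, had 3.71 and 1.21. In each of these pairs both genes were called higher. The pairs HIST1H2BG with HIST1H2AE, HIST1H2BL with HIST1H2AI, HIST1H3J with HIST1H2BO and HIST3H2A with HIST3H2BB had at most 1 tested member with U937 reads.

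**Figure D4:**
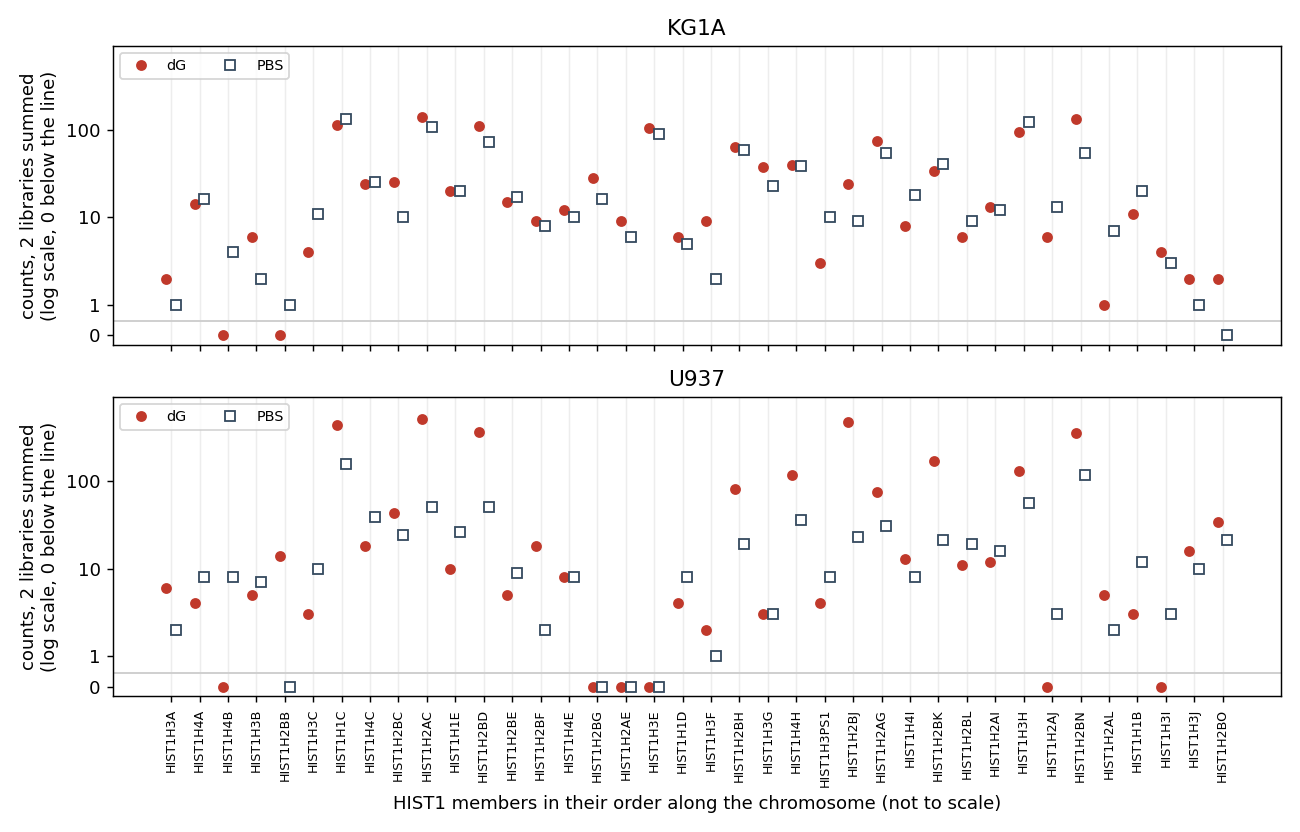
Counts summed over the 2 libraries of a group (log scale, 0 below the line) for the HIST1 members in their order along the chromosome, in KG1A (top) and U937 (bottom), dG filled and PBS open. Genes with high dG counts in U937 stand between genes with few counts, and HIST1H2BG, HIST1H2AE and HIST1H3E are at 0 in U937.

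Taken as a whole, the clustered genes changed little in KG1A, though at their low depth small changes of single members could go uncalled. Of the 20 tested, 4 were called higher and none lower, beside 29.6% of all genes tested called higher and 19.6% lower (49.1% in either direction). Their median log2 fold change was 0.21, against 0.04 over all genes. Summed over the 45 members, the level was 26.8 and 26.0 CPM in KG1A dG, against 24.7 and 22.6 CPM in KG1A PBS. The 4 libraries were thus close, and summed RPKM turned the direction, with a log2 ratio of -0.088 in place of 0.16. Both dG libraries lay above both PBS libraries in 11 members and below in 11, beside 36.4% and 26.5% of all genes with 10 or more counts.

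The 4 that rose were among the 9 H2B genes tested. Summed over the 16 clustered H2B members, the level was 11.6 and 10.1 CPM in KG1A dG, against 8.24 and 7.46 CPM in KG1A PBS. The H2A sum was also higher, while the H1, H3 and H4 sums overlapped between the groups. Both dG libraries lay above both PBS libraries in 6 of the 16 and below in 1. The share above was near the 36.4% of all genes with 10 or more counts. HIST1H2BN had 2.42 and 2.58 CPM in KG1A dG, against 1.04 and 1.03 CPM in KG1A PBS, with little spread within either pair. Its log2 fold change was 1.27 ± 0.23 (adjusted p = 1.74e-05). HIST1H2BJ had 14 and 10 counts in dG, against 6 and 3 in PBS (1.37 ± 0.54, adjusted p = 0.0321). HIST1H2BC had 15 and 10 counts in dG, against 5 and 5 in PBS (1.28 ± 0.51, adjusted p = 0.0353). HIST1H2BD had 1.99 and 2.14 CPM in dG, against 1.17 and 1.54 CPM in PBS (0.58 ± 0.22, adjusted p = 0.0294).

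Apart from HIST1H2BN, these calls rest on single libraries, and without KG1A dG replicate 1 the count of 4 became 1. HIST1H2BJ had an adjusted p of 0.348 without KG1A PBS replicate 2 and 0.15 without KG1A dG replicate 1. HIST1H2BC had 0.0816, 0.212 and 0.228 without KG1A PBS replicate 1, KG1A PBS replicate 2 and KG1A dG replicate 1, and HIST1H2BD had 0.21, 0.0571 and 0.113 without KG1A PBS replicate 1, KG1A dG replicate 1 and KG1A dG replicate 2. Both also lost the call without either U937 dG library, at 0.0576 to 0.0592. The other members called higher in U937 were not called in KG1A. HIST1H2AC had 2.56 and 2.70 CPM in KG1A dG, against 1.91 and 2.16 CPM in KG1A PBS, both dG libraries above both PBS libraries (0.36 ± 0.20, adjusted p = 0.135). HIST1H1C had 2.31 and 1.94 CPM in dG, against 2.47 and 2.53 CPM in PBS, both below (-0.23 ± 0.19, adjusted p = 0.347).

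The difference between the lines was tested as an interaction, the U937 effect minus the KG1A effect. Of the 20 clustered members, 11 were called higher and none lower, beside 17.6% of all genes tested called higher and 26.4% lower (44.1% in either direction). Of the 11 variants, 1 was called higher and 3 lower. The median difference was 1.07 over the 20 and -0.10 over all genes. HIST1H2BK had the largest, 3.63 ± 0.48 (adjusted p = 5.94e-08), with a log2 fold change of 3.35 in U937 and -0.28 in KG1A. For HIST1H2AC the difference was 3.35 ± 0.29 (adjusted p = 3.33e-12) and for HIST1H1C 2.08 ± 0.24 (adjusted p = 3.18e-09). HIST1H2BN, called in both lines, differed by 0.70 ± 0.30 (adjusted p = 0.0579).

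The variant genes carried most of the histone reads. The 11 members took 0.123% and 0.123% of all counts in U937 dG, against 0.138% and 0.140% in U937 PBS, and 0.221% and 0.218% in KG1A dG, against 0.214% and 0.215% in KG1A PBS. The 45 clustered members took 0.00740% and 0.00783% in U937 dG, against 0.00194% and 0.00173% in U937 PBS. Per length, in the deposited RPKM, H2AFZ (H2A.Z) was the highest variant in each of the 4 groups, at 90.5 and 94.0 in U937 dG and PBS and 164 and 153 in KG1A dG and PBS. H1FX, H3F3B, H2AFY, H2AFV and H2AFX followed at 22.1 to 98.6. The highest clustered gene per length was HIST1H1C, at 15.7 RPKM in U937 dG against 4.17 in U937 PBS, so no clustered gene reached the measured level of these 6 variants. Since the libraries select poly(A) tails, these values do not compare the full amounts of clustered and variant mRNA.

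**Figure D5:**
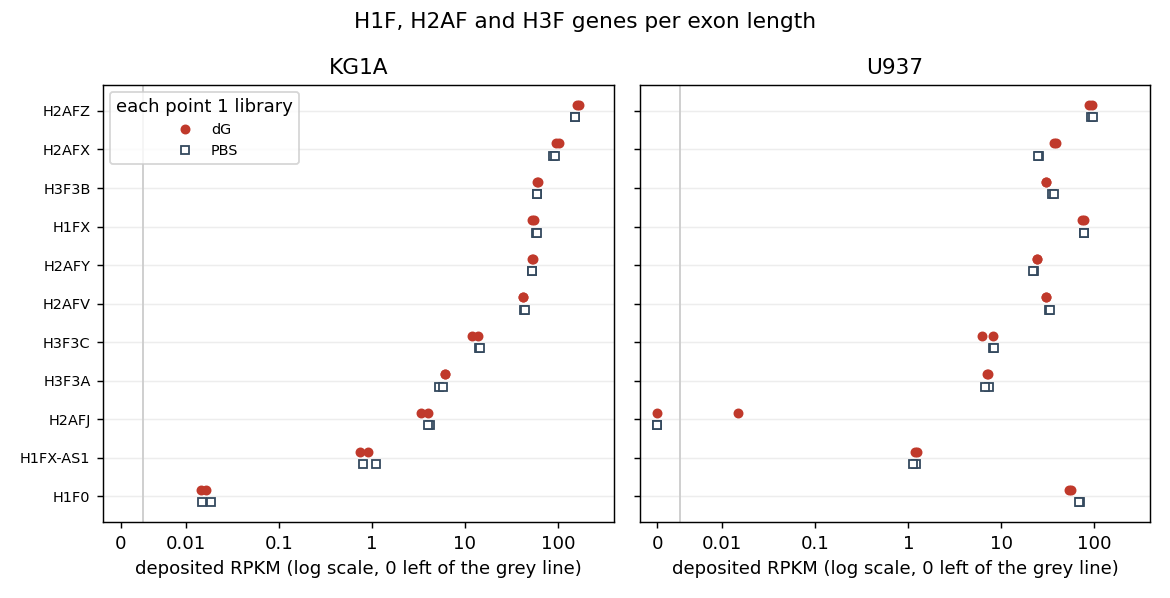
Deposited RPKM (log scale, 0 left of the grey line) of the 11 H1F, H2AF and H3F members in KG1A (left) and U937 (right), 1 point per library, dG filled and PBS open. H2AFJ is near 0 in U937 and H1F0 near 0 in KG1A, and the dG and PBS points of the other members lie close together.

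Changes of the variants under dG were small. In U937, 1 of 11 was called higher and 5 lower, with a median of -0.10. In KG1A, 5 were called higher and none lower, with a median of 0.02. The shares of all genes called are those given above for each line. Their sum was 1268 and 1259 CPM in U937 dG, against 1344 and 1365 CPM in U937 PBS, a log2 ratio of -0.10 that became -0.010 with DESeq2's size factors. In KG1A it was 2264 and 2228 CPM in dG, against 2106 and 2102 CPM in PBS, a log2 ratio of 0.094 that became 0.030 with library size alone.

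H2AFX encodes H2A.X, the variant phosphorylated beside DNA breaks. It had 56.9 and 60.5 CPM in U937 dG, against 40.9 and 40.8 CPM in U937 PBS, and 170.0 and 158 CPM in KG1A dG, against 140.1 and 146 CPM in KG1A PBS. The dG libraries were higher in both lines. The log2 fold changes were 0.52 ± 0.05 in U937 (adjusted p = 5.93e-11) and 0.20 ± 0.04 in KG1A (adjusted p = 0.000106), and their difference was 0.33 ± 0.07 (adjusted p = 9.56e-05).

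H3F3B, the main source of H3.3 reads, had 179 and 179 CPM in U937 dG, against 217 and 228 CPM in U937 PBS. It fell by 0.31 ± 0.03 on the log2 scale (adjusted p = 7.36e-10). In KG1A it had 384 and 375 CPM in dG, against 359 and 355 CPM in PBS (0.09 ± 0.03, adjusted p = 0.0212). The lines thus stood on opposite sides, with a difference of -0.40 ± 0.05 (adjusted p = 6.87e-09). H3F3A encodes the same protein and had 19.8 and 20.02 CPM in KG1A dG, against 16.3 and 18.2 CPM in KG1A PBS (0.20 ± 0.08, adjusted p = 0.0303), with no call in U937 (adjusted p = 0.629). H3F3C, a copy without introns, was called in neither line (adjusted p = 0.0678 in U937 and 0.542 in KG1A). H3F3A, H3F3C and their processed copies are alike in sequence, so the division of reads among them is uncertain.

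H2AFZ and H2AFV encode the forms of H2A.Z that replace H2A at promoters. H2AFZ had 209 and 196 CPM in U937 dG, against 214 and 225 CPM in U937 PBS (-0.11 ± 0.04, adjusted p = 0.00761), and 397 and 381 CPM in KG1A dG, against 344 and 348 CPM in KG1A PBS (0.17 ± 0.03, adjusted p = 8.43e-05). H2AFV had 139.7 and 139 CPM in U937 dG, against 155 and 160.5 CPM in U937 PBS (-0.18 ± 0.04, adjusted p = 6.61e-05), and was not called in KG1A (adjusted p = 0.756). H2AFY, which encodes macroH2A, had 967 and 978 CPM in KG1A dG, against 927 and 907 CPM in KG1A PBS (0.08 ± 0.03, adjusted p = 0.0135). The corresponding U937 value was 0.07 ± 0.03 (adjusted p = 0.0535).

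The linker variants differed by line. H1F0, the H1.0 gene typical of cells that stop dividing, had 120.2 and 128 CPM in U937 dG, against 165 and 162 CPM in U937 PBS. Both treated libraries were lower, with a log2 fold change of -0.40 ± 0.04 (adjusted p = 8.04e-11). In KG1A it had 1 count in each of the 4 libraries. H1FX had 112 and 108 CPM in U937 dG, against 117 and 118 CPM in U937 PBS (-0.10 ± 0.04, adjusted p = 0.0382). H1FX-AS1, which overlaps it on the other strand, was not called in either line (adjusted p = 0.946 in U937 and 0.477 in KG1A), and without a stated strand setting the reads of this pair cannot be told apart.

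Calls of these small changes depended on single libraries and on the scaling. In U937, H2AFZ had an adjusted p of 0.0685, 0.0555 and 0.989 without PBS replicate 2, dG replicate 1 and dG replicate 2, and H1FX had 0.0739, 0.0687, 0.281 and 1 without PBS replicate 1, PBS replicate 2, dG replicate 1 and dG replicate 2. In KG1A, without either U937 dG library, H2AFY had 0.663 and 0.668, H3F3B 0.63 and 0.634, and H3F3A 0.18 and 0.179. H2AFY also lost its KG1A call without PBS replicate 2 (0.151) or dG replicate 2 (0.0782). H3F3B lost it without PBS replicate 1 (0.0711), PBS replicate 2 (0.132) or dG replicate 1 (0.163), and H3F3A without PBS replicate 1 (0.296), dG replicate 1 (0.0691) or dG replicate 2 (0.0901).

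Between the vehicle-treated lines, histone genes were called about as often as other genes. In PBS, U937 against KG1A gave 6 clustered members called higher and 9 lower of 20, and 3 variants higher and 7 lower of 11, beside 41.4% and 40.8% of all genes tested (82.3% in either direction), so the counts show nothing particular to histone genes. H1F0 was the largest contrast among the variants, with 5248 and 4059 counts in U937 PBS and 1 and 1 in KG1A PBS. Scaled to depth it was 4274-fold higher in U937, with an exact 95% counting interval of 1183 to 35293. H2AFJ, which encodes H2A.J, was the reverse, with no count in U937 PBS and 325 and 385 in KG1A PBS. It was at least 258-fold lower in U937 against the floor of 3 counts, and 1 count was seen over the 2 U937 dG libraries.

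Among the clustered genes, HIST1H2BO had 16 and 5 counts in U937 PBS and none in KG1A PBS, at least 6.43-fold higher in U937. HIST1H2BN was higher by 0.97 ± 0.24 on the log2 scale (adjusted p = 0.000395). HIST1H3E had no count in U937 PBS and 48 and 42 in KG1A PBS, at least 32.7-fold lower in U937. HIST1H2AC was also lower in U937 PBS, at 1.04 and 0.678 CPM against 1.91 and 2.16 CPM in KG1A PBS (-1.22 ± 0.25, adjusted p = 3.89e-05). HIST1H2BH was lower by 1.72 (-1.72 ± 0.35, adjusted p = 3.96e-05) and HIST1H3H by 1.23 (-1.23 ± 0.25, adjusted p = 2.96e-05). Without KG1A PBS replicate 2 the count of 6 higher became 2, and without U937 PBS replicate 2 it became 3.

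Genes at 0 in U937 lay side by side. HIST1H2BG, HIST1H2AE and HIST1H3E, consecutive members between positions 26215159 and 26227473 of chromosome 6, had no read in any of the 4 U937 libraries. In KG1A they had 16 and 12, 3 and 6, and 57 and 47 counts in dG, against 10 and 6, 1 and 5, and 48 and 42 in PBS. The nearest members on either side, HIST1H4E and HIST1H1D, had U937 reads in all 4 libraries, at 1 to 6 counts. On chromosome 12, HIST4H4 and H2AFJ lie between positions 14767999 and 14778002, and HIST4H4 had no U937 read while KG1A had 2 and 2 counts in dG, against 6 and 1 in PBS. The unnamed gene RP11-174G6.5 beside them was likewise at 0 in U937, and the next gene, WBP11, had 1993 to 3783 counts in all 8 libraries. These stretches were chosen after the values were seen.

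The genes that make and end histone mRNA did not move as 1 group. Of 26 listed genes of histone transcription and 3′ end processing, 12 rose and 9 fell in U937 (median 0.09), and 8 rose and 8 fell in KG1A (median -0.03). Of all genes tested, 32.4% were called higher and 31.5% lower in U937, and 29.6% higher and 19.6% lower in KG1A, so the KG1A count of higher genes was near the share over all genes. SLBP and NPAT were chosen after their values were seen. SLBP, which binds the stem-loop, had 156 and 158 CPM in U937 dG, against 171 and 165 CPM in U937 PBS (-0.10 ± 0.04, adjusted p = 0.0151). In KG1A SLBP had 254 and 257 CPM in dG, against 216 and 214 CPM in PBS (0.25 ± 0.03, adjusted p = 1.11e-07). NPAT, the coactivator of clustered histone transcription, rose by 0.16 ± 0.06 in U937 (adjusted p = 0.0191) and by 0.25 ± 0.04 in KG1A (adjusted p = 4.04e-06).

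CPSF3, the endonuclease that cuts histone pre-mRNA behind the stem-loop and other pre-mRNAs at their poly(A) site, had 105 and 96.1 CPM in U937 dG, against 202 and 199 CPM in U937 PBS. Both treated libraries were far below both vehicle libraries. The log2 fold change was -0.99 ± 0.04 (adjusted p = 4.52e-22). In KG1A it was not called (-0.01 ± 0.04, adjusted p = 0.864), and the difference was -0.98 ± 0.06 (adjusted p = 1e-16). The cap-binding subunit NCBP1 (-0.95) and the cleavage factor CSTF2T (-0.89) also fell in U937. POU2F1 rose by 0.54 in U937 and by 0.29 in KG1A (adjusted p = 0.000296). Its KG1A call was lost with DESeq2's test and with limma. The largest KG1A changes were NCBP2 (-0.65), UPF1 (-0.41), MIF4GD (-0.41) and LSM10 (-0.35). Without KG1A PBS replicate 2, MIF4GD had -0.25 (adjusted p = 0.124).

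Most of the listed chaperone genes fell in U937. Of 32 listed genes of histone chaperoning and deposition, 5 rose and 22 fell in U937 (median -0.27), and 11 rose and 9 fell in KG1A (median 0.03). This stood beside 31.5% of all genes called lower in U937, and beside 29.6% called higher in KG1A, which the KG1A count is near. SSRP1, a subunit of the FACT chaperone, had 171 and 171 CPM in U937 dG, against 472 and 453 CPM in U937 PBS (-1.44 ± 0.03, adjusted p = 3.06e-29), and changed by -0.43 ± 0.03 in KG1A (adjusted p = 2.13e-14). IPO4, an importin that carries H3 and H4, fell by 2.37 on the log2 scale in U937 and by 1.51 in KG1A, from few reads (7 and 4 counts in U937 dG, against 44 and 31 in U937 PBS). On log2(RPKM + 1), which compresses low values, both changes were -0.26. ASF1B, an H3 and H4 chaperone of S phase, rose in both lines, by 0.19 in U937 and 0.55 in KG1A. The loading factor of the centromeric H3, HJURP, rose by 0.79 in U937 and 0.84 in KG1A, and CENPA, the centromeric H3 itself, by 0.58 and 0.25.

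Of 21 listed S-phase and proliferation genes, 9 rose and 12 fell in U937 (median -0.49), and 13 rose and 5 fell in KG1A (median 0.25). Beside these stand 32.4% of all genes called higher and 31.5% lower in U937, and 29.6% and 19.6% in KG1A. In the difference between the lines 16 were called lower and none higher, beside 26.4% and 17.6% of all genes. The replication factors GINS2 (-1.31), MCM5 (-1.06), MCM6 (-0.89) and CDC45 (-0.89) fell in U937. CCNE2, the cyclin of S-phase entry, rose by 0.88 in U937 and 0.80 in KG1A, and RRM2, a subunit of ribonucleotide reductase, by 0.46 and 0.71. Their part in the histone changes was not tested.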

How the data were processed

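RNA of KG1A and U937 cells in dG or PBS was sequenced in 8 libraries, grouped by the sample titles. The deposited table of read counts holds whole numbers for 57992 genes, each with its span and summed exon length. Per the submitters' processing notes, the tools were HTSeq 0.11.2, TopHat2 and bcl2fastq 2.18.0.12, on hg38; their settings, the annotation release, the strandedness of counting and the handling of multiply mapped reads are not given in the sources used here. The authors' deposited RPKM are counts per kilobase of exon length and per library scaled by TMM (trimmed mean of M-values) factors, as a recalculation from the counts showed.

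The two-sided quasi-likelihood test of edgeR (4.0.16, under R 4.3.3) was run on the deposited counts of all 8 libraries in 1 model, after filterByExpr left 18314 genes, with TMM factors and 1 mean per line and treatment (4 residual degrees of freedom, common coefficient of variation 2.51%). Benjamini-Hochberg adjustment ran over every gene in the model, and 0.05 was the threshold. CPM are counts per scaled library. The script was tested on simulated counts. Counting intervals (exact Clopper-Pearson, 95%, on the split of counts between 2 groups) and the floor of 3 counts per group cover counting error only.

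Alternatives were DESeq2 1.42.0 size factors and test, library size alone, no filter, each line fitted alone, a replicate block, limma 3.58.1 on log2(RPKM + 1) or log2(RPKM + 0.1), for summed levels RPKM or leaving out the most abundant member, and each library left out. The labels give both treatments replicate numbers 1 and 2, but same-numbered libraries did not deviate together (correlation -0.0771 in KG1A and 0.0242 in U937). No pairing was thus seen, though 2 libraries per group cannot exclude it.

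Transcript models and pseudogene status came from GENCODE 29, which held 55 of the 56 members, and promoters from RefSeq (GRCh38.p14), which matched 46. Genes were named from, per comparison and class, up to 8 called members with the largest change in each direction, the 3 of highest CPM per line, every variant tested, and per list up to 4 called genes with the largest change per line, or the 2 of highest CPM where none was called; exceptions are said to be chosen after their values were seen. The members, lists and tests were chosen with earlier results of these data known.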

Additional observations from a re-analysis of the deposited data

Results flagged for a closer look

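For 15 of the 31 members tested, the change under dG differed between the lines by the interaction test of edgeR, at an adjusted p under 0.05. Counted in either direction over both classes, this is near the 44.1% of all genes tested, so the count of 15 itself shows nothing particular to histone genes. By direction the clustered members stood apart. Of the 20 tested, 11 were called higher and none lower, beside 17.6% and 26.4% of all genes tested. Values are the log2 fold change in U937 minus that in KG1A. Among the clustered genes the difference was 3.63 for HIST1H2BK, 3.35 for HIST1H2AC, 3.33 for HIST1H2BJ, 2.61 for HIST1H2BD, 2.35 for HIST1H2BH and 2.25 for HIST2H2BE. It was 2.08 for the linker histone gene HIST1H1C, 2.03 for HIST1H4H, 1.98 for HIST1H3H, 1.17 for HIST1H2AG and 0.98 for HIST3H2A. Among the variants it was 0.33 for H2AFX, -0.19 for H2AFV, -0.28 for H2AFZ and -0.40 for H3F3B.

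Of these, 5 lost the call when 1 library was left out. HIST1H2BJ had 2.61 (adjusted p = 0.067) without KG1A PBS replicate 1. HIST1H2AG had an adjusted p of 0.0525 without KG1A PBS replicate 2, 0.0582 without KG1A dG replicate 1 and 0.114 without U937 PBS replicate 2. HIST3H2A had 0.0706, 0.0982, 0.141, 0.0877 and 0.107 without KG1A PBS replicate 1, KG1A PBS replicate 2, KG1A dG replicate 1, U937 PBS replicate 1 and U937 dG replicate 2. H2AFV had 0.405 and 0.493 without U937 dG replicate 1 and 2, and H2AFZ had 0.149 without U937 dG replicate 2.

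The median of all genes in this difference was -0.10, and it moved by 0.11 with DESeq2's test, 0.12 without the filter and 0.12 on RPKM, so the small differences of H2AFV, H2AFZ, H3F3B and H2AFX are to be read against such a shift. HIST2H2AC, lower in U937 dG, had a difference of -1.99 that was not called (adjusted p = 0.0643) and was -3.13 (adjusted p = 0.0116) without KG1A PBS replicate 1; its adjusted p ran from 0.0116 to 0.308 over the alternatives that gave one.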

How the results depend on the processing

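In U937 the count of clustered members called higher, 14, stayed between 13 and 16 over the alternatives that left out 1 library, and 12 of these members and HIST2H2AC kept their call under all 17 alternatives. With the replicate block it was 14. HIST1H4C was called lower without U937 dG replicate 1 (-1.73, adjusted p = 0.0298) and not in the other alternatives (up to 0.888). Depth left 25 of the 45 clustered members untested.

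In KG1A, clustered members called higher (4) were 1 with DESeq2's test and 2 without the filter or with limma without it, and 1 to 4 with 1 library left out. Variants called higher (5) were 2 with library size alone, without the filter or with each line alone, 3 with DESeq2's test and 0 in all 3 limma fits, and 2 to 5 with 1 library left out. Variants called lower (0) were 1 with library size alone, without the filter, with each line alone and in both filtered limma fits. With 1 library left out, clustered and variant members called lower were each 0 to 1.

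In U937, variants called higher (1) were 2 with DESeq2's factors or test, without the filter and in all 3 limma fits, and 1 to 2 with 1 library left out. Variants called lower (5) were 3 with DESeq2's factors, without the filter and in all limma fits, 2 with DESeq2's test, and 3 to 6 with 1 library left out. Clustered members called lower (1) were 2 with unfiltered limma, and 1 to 2 with 1 library left out.

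For the difference between the lines, all genes called higher (3230) were 5262 with limma on log2(RPKM + 1), 4865 with log2(RPKM + 0.1) and 4950 with unfiltered limma, and all genes called lower (4841) were 3119 with DESeq2's test. Variants called higher (1) were 2 in all limma fits. With 1 library left out, clustered members called lower were 0 to 1 and variants 1 to 4. The difference for H2AFY, -0.02 and not called, reversed to 0.10, 0.11 and 0.10 in the 3 limma fits. For U937 against KG1A in PBS, clustered members called higher (6) were 2 with DESeq2's test, with the replicate block and with unfiltered limma, and 2 to 6 with 1 library left out.

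The log2 ratio of the clustered sum in KG1A (0.16) reversed to -0.088 on summed RPKM, and in U937 (2.13) it was 1.91. For the variant sum it was 0.030 with library size and 0.039 on RPKM in KG1A (0.094), and -0.17, -0.010 and -0.057 with library size, DESeq2's factors and RPKM in U937 (-0.10). The replicate block changed no other count by over 1.5 times; crossed numbers were not tried. The cause of these changes was not tested.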
